A study of Caenorhabditis elegans with 4 samples.

Results

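The gene lag-1 encodes the worm's own CSL-family DNA-binding protein. The stretch of chromosome IV taken to hold it carried 36 deposited LAG-1 summits out of 3126 in the series. They were chosen by position: every row of the 3 deposited peak lists with its summit between 6080000 and 6105000 on chromosome IV (ce10), whatever its strength. FLAG 1 gave 11 of them, GFP 2 gave 17 and GFP 3 gave 8, in 17 peaks. Because the stretch was chosen with its peaks known, the counts and values given here describe it and carry no test.

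LAG-1 binds DNA in a sequence-specific way and is the nuclear end point of Notch signalling. When a ligand engages the receptors LIN-12 or GLP-1, their intracellular part is released, joins LAG-1 and the co-activator SEL-8 on DNA, and turns target genes on. In the worm this pathway keeps germline stem cells and sets cell fates in the gonad and vulva. The gene lag-1 has been described elsewhere as a target of its own product, in a positive loop in the developing reproductive system.

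The study immunoprecipitated LAG-1 from whole Caenorhabditis elegans of the Bristol strain, synchronised by bleaching and grown to the L4 larval stage on NA22 bacteria. There was 1 immunoprecipitation (IP) with a FLAG antibody, called FLAG 1 here, 2 with a GFP antibody, called GFP 2 and GFP 3 after their labels, and 1 input DNA library. The labels name no tag, allele or transgene, and all 4 samples share strain, stage and source. With whole animals, a site used in few cells and a site weakly bound in many cannot be told apart. Only 1 IP used the FLAG antibody, so a difference between it and the GFP IPs may be one of antibody or of library.

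After duplicate removal, FLAG 1 kept 12186235 tags, GFP 2 kept 6858855 and GFP 3 kept 9404288. The shared input kept 20457188 tags and, as the larger library, was sampled down by the caller for each IP. A peak is a stretch called enriched over input, and a summit is a local maximum inside it, so that 1 peak can hold several. The pileup is the number of IP tags over the summit. The fold is the pileup plus 1 over the caller's background plus 1. Intervals in brackets are exact 95% Poisson intervals of the pileup, carried over to the fold with the background held fixed, and cover counting error only. They take no account of the highest possible pileup given below, so they are rough for summits near it. Folds are read within a list, since depth and the fragment length estimated by the caller differ between lists.

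Of the 36 summits, 33 lay in 5050 bp, between 6095057 and 6100106. This span held all 11 FLAG 1 summits, all 8 GFP 3 summits and 14 of the 17 GFP 2 summits. The other 3 were in GFP 2 alone, at 6083732, 6093620 and 6103255, with folds of 2.95, 3.50 and 3.38. In the gene table of the WBcel235 assembly, lag-1 follows cpi-1, a gene for a cystatin-type protease inhibitor, and precedes nssp-39. Summits were not placed against exons, introns or a promoter, since a gene annotation of the ce10 build was not used here. How much of lag-1 and of its neighbours the stretch covers was likewise not checked, and lag-1 may run past its end.

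The surroundings were bare, on a chromosome where 79.6% of the other windows of 25 kb held no summit. The next FLAG 1 summit before the stretch was at 5987746, 92254 bp away, with a fold of 2.42, and the next after it was at 6336814, 231814 bp away, with a fold of 3.09. In GFP 2 the neighbouring summits were at 5706904 (fold 5.43) and 6336736 (fold 2.71). In GFP 3 they were at 5691398 (fold 2.02) and 6469201 (fold 1.83), both in raised background. Inside the stretch, the summits nearest to its limits were the GFP 2 ones at 6083732 and 6103255. The first and last FLAG 1 summits, farther in, were at 6095246 (fold 3.91) and 6100072 (fold 3.67). Those of GFP 3 were at 6095116 (fold 3.16) and 6099897 (fold 3.20). No list had a summit closer than 92254 bp before the stretch or 231736 bp after it.

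**Figure D1:**
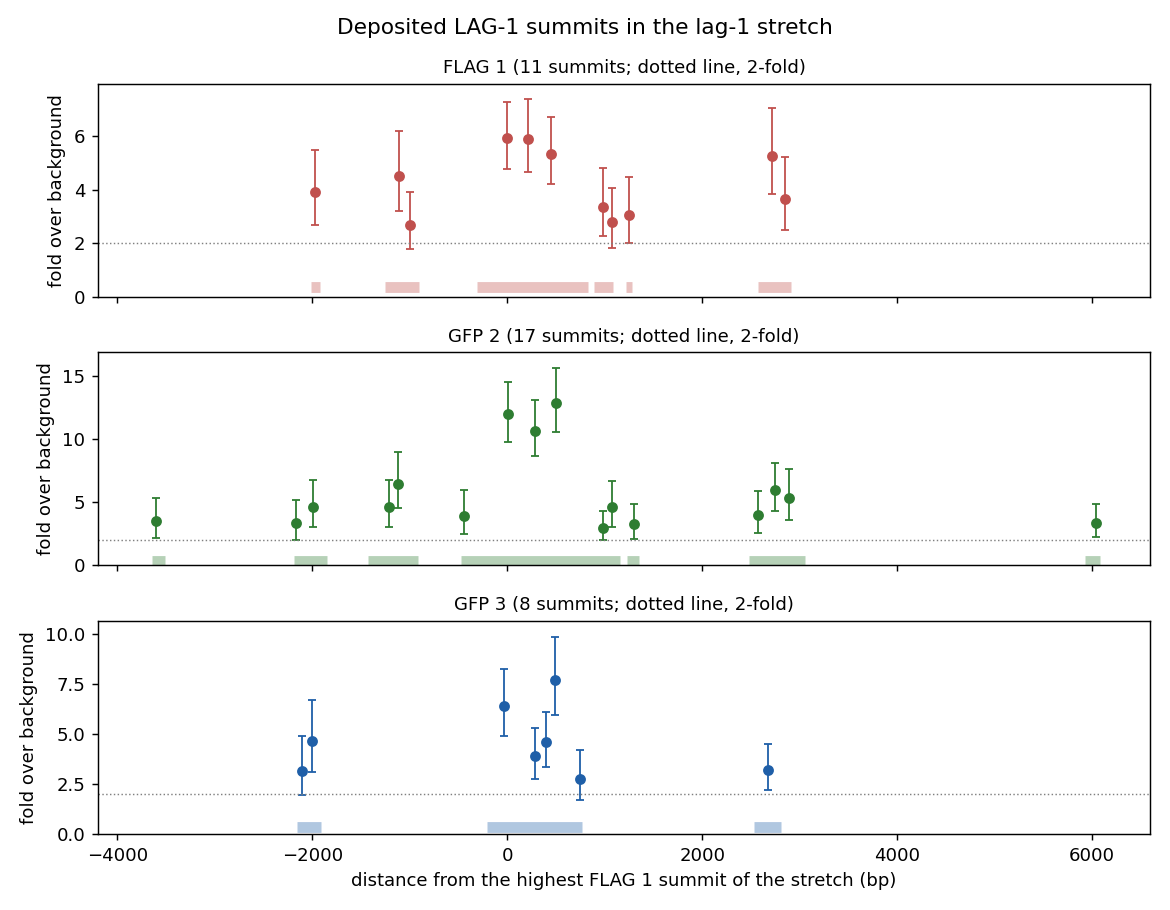
Fold over background at each deposited summit (points, with exact 95% Poisson intervals) and the extent of each peak (bars at the foot), against the distance in bp from the FLAG 1 summit at 6097219, in FLAG 1, GFP 2 and GFP 3 from top to bottom. The highest folds of the stretch in each list, 5.93, 12.9 and 7.73, lie between 0 and 502 bp, and the GFP 2 summit at -13487 bp is off the axis.

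The centre of the stretch was 1 broad peak with several summits in every list. In FLAG 1 it ran from 6096904 to 6098047, 1144 bp with 3 summits, and was the sixth widest of 875 peaks. In GFP 2 it ran from 6096741 to 6098374, 1634 bp with 6 summits, and was the third widest of 847. In GFP 3 it ran from 6097011 to 6097989, 979 bp with 5 summits, and was the third widest of 399. The GFP 3 peak thus lay wholly inside the other 2. Median widths over the whole lists were 109, 121 and 111 bp in FLAG 1, GFP 2 and GFP 3. Among peaks without raised background, defined here as a background at most 3 times the lowest in the list, this central peak was the widest in both GFP lists (out of 566 peaks of GFP 2 and 76 peaks of GFP 3), and 4 of the 650 FLAG 1 peaks were wider.

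The central peak had its main FLAG 1 summit at 6097219, where 88 IP tags stood over a background of 14 tags, a fold of 5.93 (4.77 to 7.29). The second FLAG 1 summit, 213 bp on at 6097432, had 75 tags and a fold of 5.90 (4.66 to 7.38). The third, a further 235 bp on at 6097667, had 74 tags and a fold of 5.36 (4.22 to 6.71). These 3 folds had overlapping intervals, so no order among them is shown. They ranked 69, 70 and 104 of the 1301 FLAG 1 rows.

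GFP 2 showed 3 high summits in the same place. At 6097223 it had 101 tags and a fold of 11.9 (9.75 to 14.5). At 6097503 it had 92 tags and a fold of 10.7 (8.63 to 13.1). At 6097721 it had 102 tags over a background of 7 tags, a fold of 12.9 (10.5 to 15.6). They ranked 11, 14 and 10 of the 1236 GFP 2 rows. The intervals at 6097223 and 6097721 lay above those of the other 14 GFP 2 summits of the stretch, whose folds were at most 6.46. The lower bound at 6097503 fell just under the upper bound of 8.95 at 6096096.

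GFP 3 split the same place into more summits. At 6097184 it had 58 tags and a fold of 6.41 (4.89 to 8.25). At 6097713 it had 62 tags and a fold of 7.73 (5.95 to 9.87). Between them, the summit at 6097505 had 38 tags and a fold of 3.9 (2.79 to 5.32), and the one at 6097616 had 45 tags and a fold of 4.6 (3.38 to 6.12). The interval at 6097505 did not reach that at 6097713, but it overlapped that at 6097184, and the interval at 6097616 overlapped both. No general order of middle and flanks is therefore shown. A weak GFP 3 summit at the far end, at 6097969, had a fold of 2.74. By fold, 6097713 and 6097184 ranked 8 and 13 of the 589 GFP 3 rows.

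In FLAG 1 and GFP 2 these pileups approached a limit set by the processing. With 1 tag kept per position and strand, the highest possible pileup was 106 tags in FLAG 1, 116 in GFP 2 and 96 in GFP 3, equal to the highest pileup of each list. The FLAG 1 summit at 6097219 was at 83.0% of that limit, the GFP 2 summits at 6097223 and 6097721 were at 87.1% and 87.9%, and the GFP 3 summit at 6097713 was at 64.6%. The upper Poisson bounds of the pileup exceeded the limit there: 108 tags at 6097219 in FLAG 1, 123 at 6097223 and 124 at 6097721 in GFP 2. The upper fold bounds at these summits are therefore too high. Folds near the limit may understate the enrichment, and the flatness of the FLAG 1 and GFP 2 folds over the central summits was not tested against it.

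Before and after the 3 high summits lay weaker ones that more than 1 list placed alike. The first was at -1973 bp from the main FLAG 1 summit, where FLAG 1 had 31 tags and a fold of 3.91 at 6095246. GFP 2 had 24 tags and a fold of 4.61 at 6095230, and GFP 3 had 27 tags and a fold of 4.65 at 6095215. All 3 stood at the lowest background of their list. GFP 2 and GFP 3 each had a weaker summit beside these, at 6095057 (fold 3.32) and 6095116 (fold 3.16).

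Nearer to the centre, FLAG 1 and GFP 2 had a summit that GFP 3 did not list. FLAG 1 had 36 tags and a fold of 4.53 (3.21 to 6.22) at 6096109. GFP 2 had 34 tags and a fold of 6.46 (4.53 to 8.95) at 6096096, with a second summit at 6096001 (fold 4.61). FLAG 1 also had one at 6096221 (fold 2.7). The lowest pileup anywhere in the GFP 3 list was 16 tags, so a weaker GFP 3 signal there would not have been listed. Rows were accepted by q-value against background, so a somewhat larger pileup could have gone unlisted too. A site missing from a list was not called, which does not show that it was unbound.

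After the high summits, FLAG 1 and GFP 2 placed a weak pair of summits almost at the same bases, in a peak of its own in FLAG 1 and inside the broad central peak in GFP 2. They were at 6098198 and 6098292 in FLAG 1 (folds 3.36 and 2.78) and at 6098199 and 6098297 in GFP 2 (folds 3.0 and 4.60). A further weak site was at 6098467 in FLAG 1 (fold 3.06) and 6098517 in GFP 2 (fold 3.29). Neither had a GFP 3 summit within 100 bp.

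The last site of all 3 lists was 2718 bp after the main FLAG 1 summit. FLAG 1 had 42 tags at 6099937 and a fold of 5.26 (3.82 to 7.07), an interval that overlapped those of its central summits. GFP 2 had 41 tags at 6099964 and a fold of 6.0 (4.35 to 8.09). GFP 3 had 31 tags at 6099897 and a fold of 3.20 (2.21 to 4.50). FLAG 1 and GFP 2 had another summit beyond it, at 6100072 (fold 3.67) and 6100106 (fold 5.35), and GFP 2 one before it, at 6099795 (fold 4.0).

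Joining summits of any list that lay within 100 bp of the next gave 16 sites in the stretch. All 3 lists had a summit in 5 of them, FLAG 1 and GFP 2 alone shared 4, and 7 had a single list, 5 of these in GFP 2. No site joined GFP 3 to only 1 other list. The 5 sites of all 3 lists were those at 6095057 to 6095246, at 6097184 to 6097223, at 6097432 to 6097505, at 6097616 to 6097721 and at 6099897 to 6099964. Over the whole series, 15.9% of 1698 sites held all 3 lists, and 5.51% of 1198 sites did when raised-background rows were left out. Summits were crowded in the stretch and no chance placement was run. Setting the stretch against these shares thus does not separate agreement from crowding. By overlap of peaks in place of summits, there were 3 such places, since the central peak then counts once, and without GFP 3 there were 9 sites of both other lists.

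Distances between summits depended on which list they were measured from. With 33 of the 36 summits in 5050 bp, crowding can bring summits close, and its part in the shares below was not tested. Of the 11 FLAG 1 summits, 10 had a GFP 2 summit within 100 bp (44.5% over the whole FLAG 1 list, 31.7% without raised background), and the median distance from all 11 was 27 bp. At 5 of the 10 the distance was at most 20 bp, down to 1 bp. Of the 17 GFP 2 summits, 10 had a FLAG 1 summit within 100 bp (47.6% over the list, 43% without raised background), and the median distance from all 17 was 54 bp. From the 8 GFP 3 summits the median was 48.5 bp to FLAG 1 and 49 bp to GFP 2. GFP 3 summits were found within 100 bp of 5 of the 11 FLAG 1 summits (27.6% over the list, 9.52% without raised background) and of 6 of the 17 GFP 2 summits (37.5% and 11.7%). In the other direction, 6 of the 8 GFP 3 summits had a FLAG 1 summit that close (60.6% over the list, 82.1% without raised background). Likewise, 6 of 8 had a GFP 2 summit (80.5% and 83%), so these last shares were near those of the list. No FLAG 1 and GFP 3 summits were closer than 31 bp, whereas GFP 2 and GFP 3 came within 2 bp.

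Peak extents showed the same nesting. FLAG 1 peaks covered 2192 bp of the stretch, of which 98.9% lay under a GFP 2 peak and 59.5% under a GFP 3 peak. Over the whole FLAG 1 list these shares were 44.5% and 27.5%. GFP 3 peaks covered 1499 bp, all of them under GFP 2 peaks and 87.0% under FLAG 1 peaks, where the whole GFP 3 list had 87.6% and 63.6%. GFP 2 peaks covered 3557 bp, of which 61.0% lay under FLAG 1 and 42.1% under GFP 3 peaks, where the whole GFP 2 list had 43.1% and 36.6%. The overlaps of the 2 GFP lists with each other differed least from those of the whole lists. The whole lists hold raised-background rows, 39.7% in GFP 2 and 82% in GFP 3, and the stretch has none. Shares of bases without such rows were not computed. The part of crowded, broad peaks in these overlaps was not tested. All 3 lists covered 1304 bp in common, in 3 runs from 6095201 to 6095293, from 6097011 to 6097989 and from 6099794 to 6100025. That was 36.4% of the 3581 bp covered by any list.

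The background under these summits was low. The background at every summit could be recovered from its pileup and fold. It was the lowest of the list, to within 0.1%, at 13 of the 36 summits, a whole number of input tags, to within 0.0002 tags, at 13, and the mean of a surrounding window of input at 10. Input tags here are those left after sampling. The lowest value equals the kept IP tags times the fragment length over the caller's genome size of 9.00e+07 bp. It is thus a genome-wide floor, and local input at those 13 summits may be lower. FLAG 1 met its lowest background at 5 of its 11 summits (33.8% over the list), GFP 2 at 6 of its 17 (25%) and GFP 3 at 2 of its 8 (7.98%). Relative to the lowest value of its list, it reached at most 1.95 times in FLAG 1, 1.81 times in GFP 2 and 1.79 times in GFP 3. None of the 36 was thus in raised background, against 24.1% of all FLAG 1 rows, 39.7% of GFP 2 rows and 82% of GFP 3 rows. In FLAG 1 the higher backgrounds were under the 3 summits of the central peak, at 1.65 to 1.95 times the lowest. In the GFP lists the central summits had them too, but so did weak ones, such as the GFP 3 summit at 6099897 with 1.79 times. Input signal thus moved in part with the central summits, and its part in their folds was not tested beyond the caller's own correction.

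**Figure D2:**
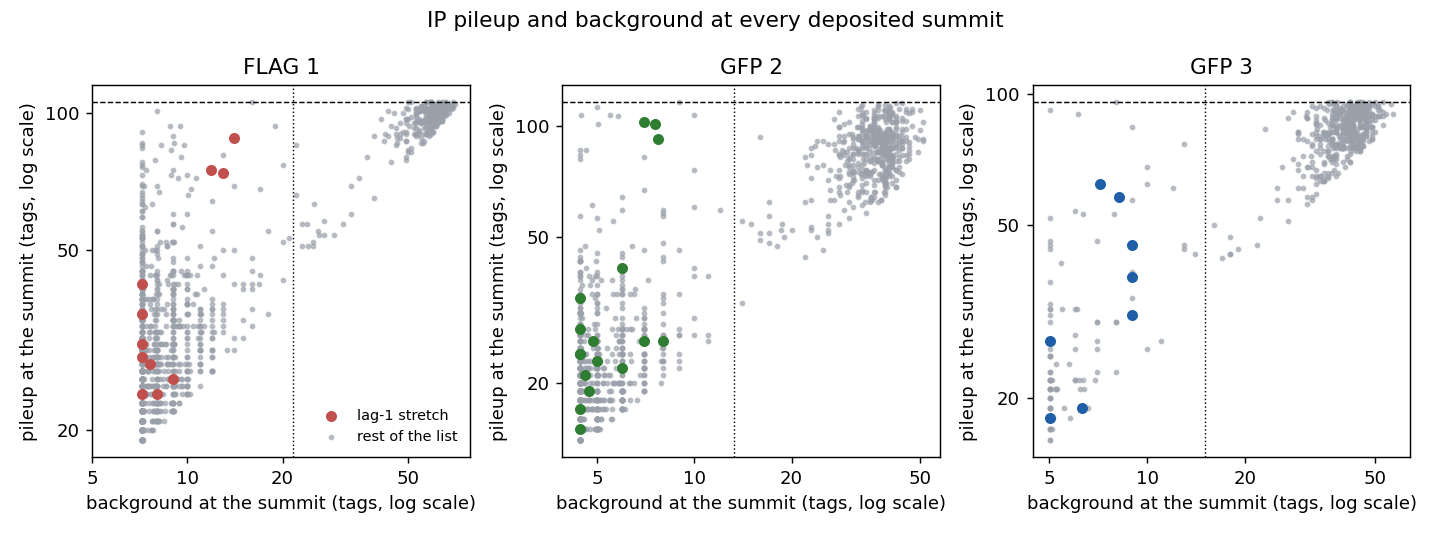
IP pileup against background at every deposited summit, both in tags on log scales, in FLAG 1, GFP 2 and GFP 3, with the lag-1 stretch in colour and the rest of each list in grey. The dashed line is the highest possible pileup (106, 116 and 96 tags) and the dotted line 3 times the lowest background. All 36 summits of the stretch lie left of the dotted line. The highest pileups of the stretch are 88, 102 and 62 tags, and in GFP 3 they lie under the list median of 81 tags.

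Every summit of the stretch passed the study's limit of 2-fold. Over the whole lists, 77.9% of FLAG 1 rows, 91.3% of GFP 2 rows and 56% of GFP 3 rows did. The median fold of the stretch was 3.91 in FLAG 1, against 2.88 over all its rows. It was 4.60 in GFP 2, against 3.0, and 4.25 in GFP 3, against 2.06. A fold above 3 was reached by 31 of the 36, while 43.7% of FLAG 1, 49.5% of GFP 2 and 15.8% of GFP 3 rows reached it. FLAG 1 reached a −log10 q-value above 10 at 5 of its 11 summits (17.4% over the list), GFP 2 at 6 of its 17 (26.1%) and GFP 3 at 3 of its 8 (8.66%). All 3 lists hold raised-background rows, and the stretch has none. Against rows without raised background, the medians were closer: 3.91 in the stretch and 3.18 over such rows in FLAG 1, 4.60 and 3.63 in GFP 2, and 4.25 and 3.66 in GFP 3. FLAG 1 had 8 of its 11 summits above the median of such rows, GFP 2 had 11 of its 17 and GFP 3 had 5 of its 8. Among GFP 3 rows without raised background, the weakest summit of the stretch ranked 102 of 106 and the strongest 8.

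The density of summits was set against the other windows of chromosome IV. Cutting the chromosome into windows of 25 kb, laid so that the stretch was exactly 1 of them, gave 701 windows, of which 20.5% held any summit and 3.14% a site of all 3 lists. The stretch held 36 summits, and the other 700 windows held 0.654 on average and none in 79.6% of cases. A single other window held as many: the one from 11055000 to 11079999, with 37. The third held 20. In FLAG 1 alone the stretch had 11 summits against at most 10 in any other window, in GFP 2 it had 17 against at most 13, and in GFP 3 it had 8 against at most 14.

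The stretch and the window with 37 summits were of different kinds. The highest fold was 12.9 in the stretch and 2.77 in the window from 11055000. The median background was 1.12 times the lowest of the list in the stretch and 8.22 times in that window, where all 37 rows had raised background. The next windows, from 2805000 with 20 summits and from 13355000 with 18, were also wholly of raised background. The window from 10930000, also with 18, had 7 without it.

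With raised-background rows left out, the stretch kept its 36 summits and the highest count in any other window of chromosome IV was 12, from 4455000 to 4479999, where 9 were from FLAG 1 and 3 from GFP 2. Windows with 10 followed. The stretch then held 11.1% of the 325 such rows on the chromosome. Of the 21 such GFP 3 rows on the chromosome, 38.1% were in the stretch, and no other window held more than 2. Sites of all 3 lists numbered 5 in the stretch. With every row counted, the window from 11055000 held 10 of them and the one from 2805000 held 5. Without raised background no other window of chromosome IV held more than 1. With a single summit per peak, so that the broad central peak counts once per list, the stretch had 17. The highest other window then had 7 without raised background and 30 with every row.

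**Figure D3:**
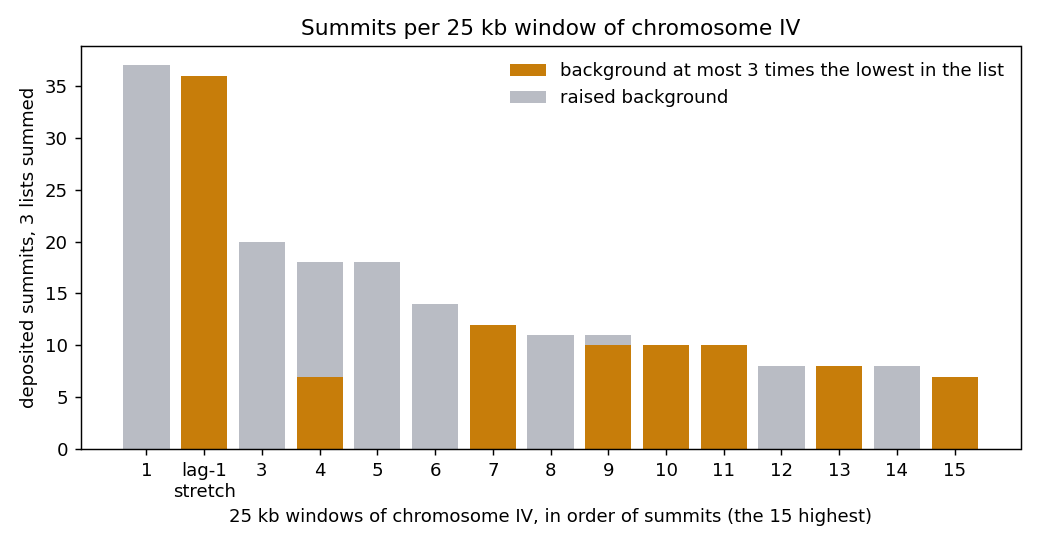
Deposited summits of the 3 lists in the 15 windows of 25 kb with the most on chromosome IV, in order of count, split by background. The lag-1 stretch is second with 36 summits, none in raised background, and the window ahead of it has 37, all in raised background.

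Windows of the same length on all chromosomes set the stretch less apart. Over 3987 windows of all 6 chromosomes without raised-background rows, the highest count outside the stretch was 33, on the X chromosome, and the most sites of all 3 lists was 3, also on X. Windows that slid in steps of 1 kb found 1 other place with 36 summits. Without GFP 2, 3 other windows held at least the stretch's 19 summits, and without GFP 3, 2 held at least its 28. With every row counted, 11 other windows held 36 or more, up to 151 on chromosome I.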

How the data were processed

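ChIP-seq peak lists of 3 IPs from whole L4 worms were used, and the input entered through the peak calling only. The authors ran MACS 2.1.0.20140616 on each IP against the input, per the file headers, keeping 1 tag per position, sampling the larger library down, splitting peaks into summits and accepting q-values up to 0.05. Fragment lengths as estimated by the caller were 53, 58 and 48 bp in FLAG 1, GFP 2 and GFP 3. They are close to the tag size of 49 bp, and in GFP 3 below it, so they may not be the true lengths. Pileups, folds, widths and the splitting of peaks into summits rest on them, and other lengths were not tried. Per the submitters' processing notes, positions refer to the ce10 build. No source used here names an aligner. The deposited pileup is a signal in tags. The deposited fold is a ratio to background. Significance was deposited as −log10 of the p-value and q-value, and positions and widths are in bp, per the file headers.

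Every deposited row was used, with no filter. The background was computed as the pileup plus 1, divided by the fold, minus 1. Sites, windows and distances were computed in Python 3.11.15 with numpy 2.4.6, pandas 2.3.3 and scipy 1.17.1, figures with matplotlib 3.10.9, and the functions were checked on simulated data. The named features are lag-1, its neighbours in the gene table, every summit of the stretch and the densest windows. The members and lists were chosen with earlier results of these data known. The 3 lists share 1 input, so they are not independent of each other. Notch gene lists and the CSL motif were not analysed here, since no ce10 genome or annotation was used.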

Additional observations from a re-analysis of the deposited data

How the results depend on the processing

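Counts moved with the limits, the joining of summits and the libraries used. In FLAG 1, the 11 summits became 5 at a −log10 q above 10 and 6 with 1 summit per peak. In GFP 2, the 17 became 11 and 6 at a −log10 q above 5 and 10, and 8 with 1 summit per peak. In GFP 3, the 8 became 5, 3 and 3 under the same settings. The fold limit of 2 removed none. Sites of all 3 lists fell to 2 at a −log10 q above 10 and to 2 with 1 summit per peak, against 5, and to 3 by overlap of peaks. They were 4 when joined within 50 bp or 200 bp. Leaving out a library gave 5 to 9 sites of both remaining lists, the 9 without GFP 3. That is a looser condition than a summit of all 3 lists.

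The single other chromosome IV window with at least as many summits became 0 with a fold above 2 or 3, with a −log10 q above 5 or 10 and without raised background. Leaving out a library gave 0 to 1, the 0 without GFP 3. It stayed at 1 with shifted, sliding, 10 kb and 50 kb windows and with 1 summit per peak. Settings added after seeing the data, without raised background, gave 0 with sliding, 10 kb and 50 kb windows, with 1 summit per peak and without each library in turn. Over all 6 chromosomes there were 11 with every row. Without raised background there were 0 (0 with 1 summit per peak, 1 in sliding windows), and leaving out a library as well gave 0 to 3.

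With 1 summit per peak, median distances to the nearest summit went from 54 to 263.5 bp (GFP 2 to FLAG 1) and from 175 to 489.5 bp (FLAG 1 to GFP 3). They went from 230 to 842.5 bp (GFP 2 to GFP 3) and from 49 to 15 bp (GFP 3 to GFP 2). The least changed were FLAG 1 to GFP 2, from 27 to 38.5 bp, and GFP 3 to FLAG 1, from 48.5 to 40 bp. Each change was smaller than the standard deviation of the distances behind it. With a fold above 3, the FLAG 1 to GFP 3 median was 73 bp. The share of a list at or above the stretch's strongest summit, by fold 5.30% in FLAG 1, 0.809% in GFP 2 and 1.36% in GFP 3, was 2.23% in FLAG 1 by −log10 q. By pileup it was 22.1%, 6.39% and 80.1%. Of the other rows with at least that pileup, FLAG 1 had 279 of its 286 in raised background, GFP 2 had 72 of its 78 and GFP 3 had 464 of its 471. No paired analysis was possible because the result comes from no test. FLAG 1 listed no pileup under 19 tags, GFP 2 none under 14 and GFP 3 none under 16, so weaker signal in the stretch was not detectable in these lists. Rows were accepted by q-value, so where the background was higher, larger pileups could go unlisted too.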
